A study of Mus musculus with 12 samples.

Results

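Rps4l, on mouse chromosome 6, is a copy of the gene for ribosomal protein S4 that RefSeq, on mouse assembly GRCm38.p6, lists as a transcribed pseudogene with a noncoding transcript and places within the span of Tmtc1. It is read here by 1 probe set, 1452730_at, which is every probe set annotated to it, and it is 1 of the 18194 genes that at least 1 probe set reads alone. It was chosen by its measured values in these arrays, bright in Rictor-deleted leukemia and low in controls of both models, so its levels and differences are given below as a description without a test. Gene expression was measured on 12 Affymetrix arrays in 4 groups of 3. The groups are RictorΔ/Δ and control MLL-AF9 leukemia and RictorΔ/Δ and control MLL-NRIP3 leukemia. RictorΔ/Δ cells carry a deletion of Rictor and control cells are labelled Rictor wild type. The cells, labelled K+G– bone marrow leukemia cells, all came from mice after a first bone marrow transplantation and were sorted when CD45.2+ cells made up over 50% of white blood cells in the blood. MLL-AF9 and MLL-NRIP3 are fusions of the MLL gene that drive the leukemia. The labels also give peripheral blood as host tissue. They do not name the Rictor allele or how it was deleted, the strains or the ages. They do not say that replicates are separate animals, so the spread behind each p-value may be technical.

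Ribosomal protein S4 is a structural protein of the small ribosomal subunit. In mouse it is made from Rps4x on the X chromosome, a gene that is silenced on the inactive X in mouse but escapes silencing in human, where further copies lie on the Y chromosome. Rictor is an essential subunit of the kinase complex mTORC2, which is known to bind ribosomes. Ribosomal protein genes have left many processed copies in mammalian genomes, most of them silent. The RefSeq table also lists Rps4x-ps on chromosome 5 and Rps4l-ps on chromosome 7, both as pseudogenes and both with 0 probe sets of their own, and whether their transcripts could bind the Rps4l probes was not tested.

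The values are linear intensities in the scale of the depositors, and their number of arrays limits the precision. The median of all probe sets lay between 8.16 and 8.36 on MLL-AF9 arrays and between 13.6 and 14.2 on MLL-NRIP3 arrays, so levels set across the models are not on 1 scale. Among the genes that mark the sorted cells, Kit at its brightest probe set read 135 to 157 in RictorΔ/Δ and 160 to 232 in control MLL-AF9 cells, and 406 to 593 in RictorΔ/Δ and 307 to 390 in control MLL-NRIP3 cells. The dimmer Kit probe set, 1415900_a_at, overlapped between the genotypes in both models. Ptprc, which encodes CD45, read 1448 to 2244 over the 12 arrays. The 3 genes for the granulocyte antigen Gr-1 had no probe set of their own here. Rictor itself gave no check of the labels, since its brightest probe set read 77.9, 88.1 and 96.4 in RictorΔ/Δ and 84.4, 92.4 and 83.7 in control MLL-AF9 cells, and the labels do not place this probe set relative to the deleted part of the gene. In limma the difference was 0.01 ± 0.09 (SE) on the scale of log2(intensity + 16) in MLL-AF9 leukemia (adjusted p = 0.98) and −0.09 ± 0.19 in MLL-NRIP3 leukemia (adjusted p = 0.84). The other 4 Rictor probe sets, not tested on their own here, differed in direction. In MLL-AF9 cells 1429810_at read 24.8, 24.5 and 26.5 in RictorΔ/Δ and 30.6, 32.9 and 29.3 in control cells, and 1441753_at read 15.3, 19.4 and 14.8 in RictorΔ/Δ and 21.3, 21.3 and 23.2 in control cells. Both were lower in RictorΔ/Δ cells without overlap there, but overlapped between the genotypes in MLL-NRIP3 leukemia. Of single genes tested in MLL-AF9 leukemia, 15.9% had all 3 RictorΔ/Δ arrays below all 3 controls. In MLL-NRIP3 cells 1453775_at read 137.7, 140.2 and 61.3 in RictorΔ/Δ and 45.2, 37.7 and 66.2 in control cells, higher on average with overlap. The dim 1427583_at read 3.66 to 4.83 over the 12 arrays.

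Rps4l was bright on every RictorΔ/Δ array and low on every control array. In MLL-AF9 leukemia its intensity was 118.9, 132.4 and 115.6 in the RictorΔ/Δ cells. In the MLL-AF9 controls it was 8.11, 3.77 and 5.23. The lowest RictorΔ/Δ array read 14.3 times the highest control array, so the groups did not overlap. The group means were 122 ± 8.89 in RictorΔ/Δ and 5.70 ± 2.21 in control cells (SD, n = 3 each), a ratio of 21.5. Among the 12454 genes tested in this model, 11.4% likewise had all 3 RictorΔ/Δ arrays above all 3 controls.

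In MLL-NRIP3 leukemia the same probe set read 115.4, 202.7 and 130.5 in RictorΔ/Δ cells. In the controls of this model it read 3.30, 3.73 and 3.07. Again the groups did not overlap, with the lowest RictorΔ/Δ array at 30.9 times the highest control array, as 9.85% of 12585 genes tested had all 3 RictorΔ/Δ arrays above all 3 controls by any margin. The means were 150 ± 46.7 in RictorΔ/Δ and 3.37 ± 0.33 in control cells (SD, n = 3 each), a ratio of 44.4. The deposited values come without detection calls, so it is not known whether the control values stand above background, and a ratio against them depends on how the background was set.

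**Figure D1:**
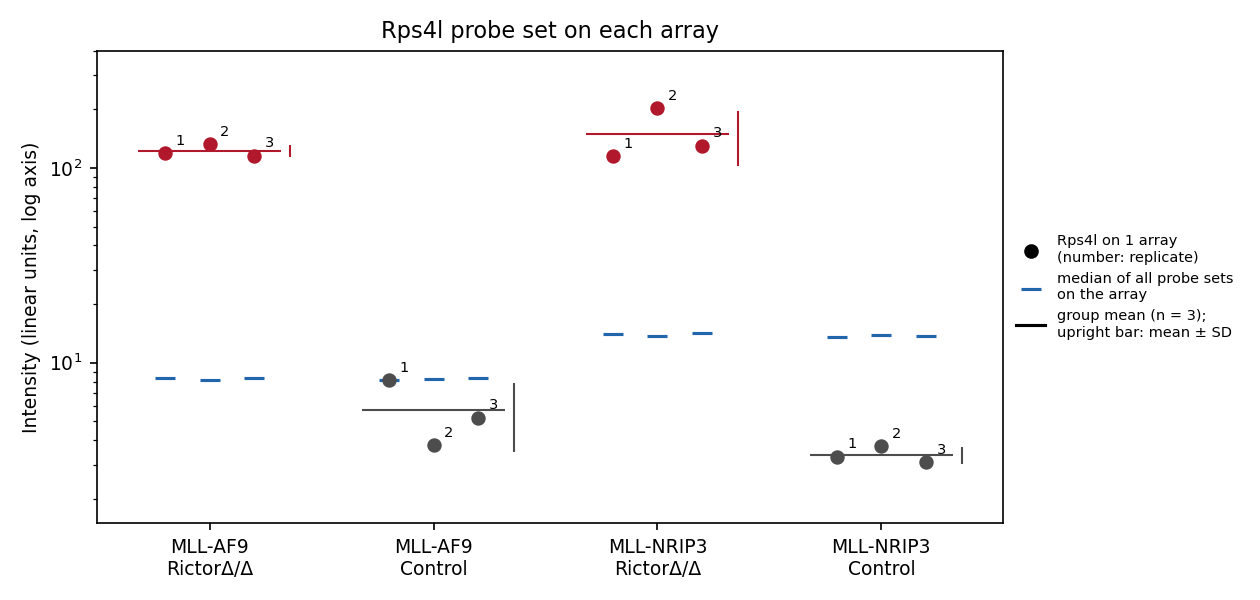
Intensity of the Rps4l probe set (linear units on a log axis) on each of the 12 arrays by group, with the group mean, the SD (n = 3) and each array's median over all probe sets. The 6 RictorΔ/Δ arrays lie between 115.4 and 202.7, and the 6 controls lie between 3.07 and 8.11, at or below their arrays' medians.

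The position of the gene within each array gives the same picture without a common scale. On the RictorΔ/Δ arrays Rps4l read 13.8 to 16.2 times the array median in MLL-AF9 and 8.23 to 14.8 times in MLL-NRIP3 leukemia. There it lay above 85.7% to 86.9% of all probe sets on the MLL-AF9 arrays and above 80.6% to 86.9% on the MLL-NRIP3 arrays. In the controls it lay above 49.9%, 10.9% and 31.5% of probe sets on MLL-AF9 arrays 1, 2 and 3, and above 15.0% to 19.3% on MLL-NRIP3 arrays. MLL-AF9 control array 1 was thus the highest of the controls, just under its array's median of 8.16.

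Ordered by mean, MLL-NRIP3 RictorΔ/Δ cells came first, then MLL-AF9 RictorΔ/Δ cells, MLL-AF9 controls and MLL-NRIP3 controls. The values of the RictorΔ/Δ groups overlapped, so these neighbours in the order did not differ beyond their spread. The control groups did not overlap in intensity (3.77 to 8.11 in MLL-AF9 and 3.07 to 3.73 in MLL-NRIP3 controls), but their shares of probe sets below Rps4l did, and the models are not on 1 scale. The gap between the genotypes was wider than the spread of the replicates in either model.

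The replicates differed in how tight they were. On the log2(intensity + 16) scale the SD of Rps4l was 0.09 in MLL-AF9 RictorΔ/Δ cells, where the median SD of 1940 genes with mean intensities from 100 to 200 was 0.08. In MLL-NRIP3 RictorΔ/Δ cells it was 0.39, against a median of 0.17 over 2234 such genes, and array 2, at 202.7, was the high one. The coefficient of variation of the intensity was 7.27% in MLL-AF9 and 31.2% in MLL-NRIP3 RictorΔ/Δ cells.

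On the same log2 scale Rps4l was higher in RictorΔ/Δ cells by 2.68 ± 0.09 (SE) in MLL-AF9 and by 3.06 ± 0.19 (SE) in MLL-NRIP3 leukemia. The added 16 shrinks differences of dim genes. With 1 added instead, the differences were 4.25 and 5.07, and with 64 added they were 1.42 and 1.64. Leaving out each array in turn gave 2.61 to 2.75 and 2.84 to 3.21. Whether the size differs between the models was not tested. By size of increase Rps4l stood at place 8 of 12454 genes in MLL-AF9 and at place 4 of 12585 in MLL-NRIP3 leukemia. It passed the filter on dim genes through its RictorΔ/Δ arrays.

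Few genes shared this pattern across the models. Of 34958 probe sets with 1 gene symbol, 69 (0.197%) lay above the array's median on all 3 RictorΔ/Δ arrays and below it on all 3 controls in MLL-AF9 leukemia, and 103 (0.295%) did so in MLL-NRIP3 leukemia. In both models 2 probe sets (0.00572%) did so, Rps4l and that of Plk2, which encodes a polo-like kinase, and 0 showed the opposite in both. For Plk2 the distance in MLL-AF9 leukemia was small. It read 8.31, 9.14 and 8.52 in RictorΔ/Δ and 7.74, 7.86 and 7.80 in control MLL-AF9 cells, and 23.1, 35.5 and 22.8 in RictorΔ/Δ and 10.5, 12.2 and 7.65 in control MLL-NRIP3 cells. With the 60th percentile of each array as the dividing level, Rps4l alone was left.

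Ranked by the ratio of the lowest RictorΔ/Δ to the highest control array, taking the smaller ratio of the models, Rps4l came first of 18194 genes at 14.3. Vill, which encodes a villin-like protein of the actin cytoskeleton, came next at 2.24. In the opposite direction the first was Tctex1d1, a dynein light chain family gene, with its lowest control array at 1.73 times its highest RictorΔ/Δ array. A log2 difference of at least 2 in the same direction in both models was found for Rps4l only. At least 1 was found for 3 genes that were higher in RictorΔ/Δ cells (Rps4l, Vill and Mogat2) and 2 that were lower (Dpp4 and Tctex1d1). Mogat2, Dpp4 and Tctex1d1 were named after their values were seen. Rps4l was itself chosen by its values, and Vill was named through its correlation with Rps4l. Mogat2, an acyltransferase of triglyceride synthesis, was higher by 1.01 ± 0.23 in MLL-AF9 and by 1.02 ± 0.34 (SE) in MLL-NRIP3 leukemia, and Dpp4, a cell surface peptidase, was lower, at −1.51 ± 0.11 and −1.75 ± 0.53. These genes were picked on the contrast itself, so no test is given.

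**Figure D2:**
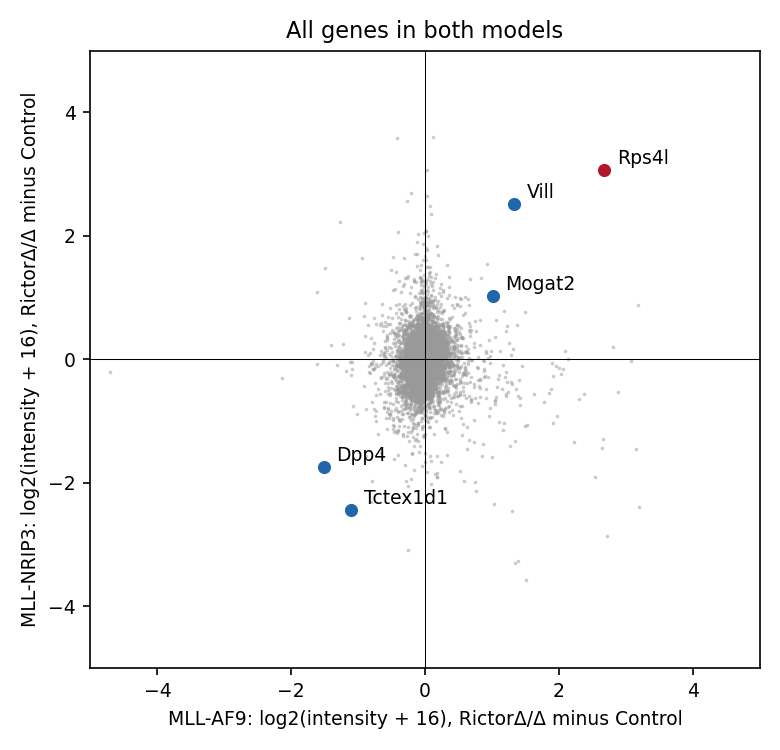
Difference of log2(intensity + 16), RictorΔ/Δ minus control, in MLL-AF9 (horizontal axis) and MLL-NRIP3 leukemia (vertical axis), 1 point for each of 18194 genes. Rps4l lies at 2.68 and 3.06, apart from the other labelled genes (Vill, Mogat2, Dpp4 and Tctex1d1).

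The genes most like Rps4l were found by Pearson's r over the 12 arrays after each model's mean was subtracted, as a description. These arrays share their groups, so any gene that separates the genotypes in both models scores high. The highest r among named genes belonged to Cchcr1 (0.96), a centrosomal coiled-coil gene, Vill (0.93), Haus4 (0.93), a subunit of the augmin complex of the mitotic spindle, and Bmp10 (0.93), a growth factor gene. They were followed by the centromere protein gene Cenpu (0.93), the phosphoinositide phosphatase gene Pip4p2 (0.92), Dck (0.91), which encodes deoxycytidine kinase, and Asns (0.90), which encodes asparagine synthetase. Each r was taken at the brightest probe set of the gene. The dimmer Cenpu probe set, 1452816_at, overlapped between the genotypes in both models. The lowest r belonged to the keratin gene Krt18 (−0.97), the co-chaperone gene Ttc4 (−0.96) and Nsmaf (−0.95). By Spearman's rho 0 of these 8 high genes were among the first 8.

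Likeness in shape did not mean likeness in size. Vill read 130.0, 139.8 and 99.1 in RictorΔ/Δ and 44.3, 41.9 and 31.2 in control MLL-AF9 cells. In MLL-NRIP3 cells it read 255.3, 316.9 and 205.7 in RictorΔ/Δ and 51.1, 12.8 and 39.2 in control cells. Its controls were dimmer than its RictorΔ/Δ cells but above the array median except for MLL-NRIP3 control array 2. Cchcr1 moved far less, at 49.5, 51.6 and 50.9 in RictorΔ/Δ and 41.5, 41.7 and 41.7 in control MLL-AF9 cells, and at 43.8, 46.1 and 44.1 in RictorΔ/Δ and 35.7, 39.6 and 38.5 in control MLL-NRIP3 cells. Bmp10 read 4.58 to 8.50 over the 12 arrays and did not pass the filter on dim genes.

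Over all 45100 other probe sets the highest r (0.99) belonged to 1438237_at, which is annotated to several genes and is therefore not named. It read 34.6, 43.2 and 42.7 in RictorΔ/Δ and 7.00, 6.22 and 5.29 in control MLL-AF9 cells. In MLL-NRIP3 cells it read 69.2, 81.6 and 78.8 in RictorΔ/Δ and 9.37, 11.1 and 16.04 in control cells. It too was several times brighter in RictorΔ/Δ cells than in the controls of both models. MLL-NRIP3 control array 3 alone, at 16.04, lay above its array's median of 13.8.

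**Figure D3:**
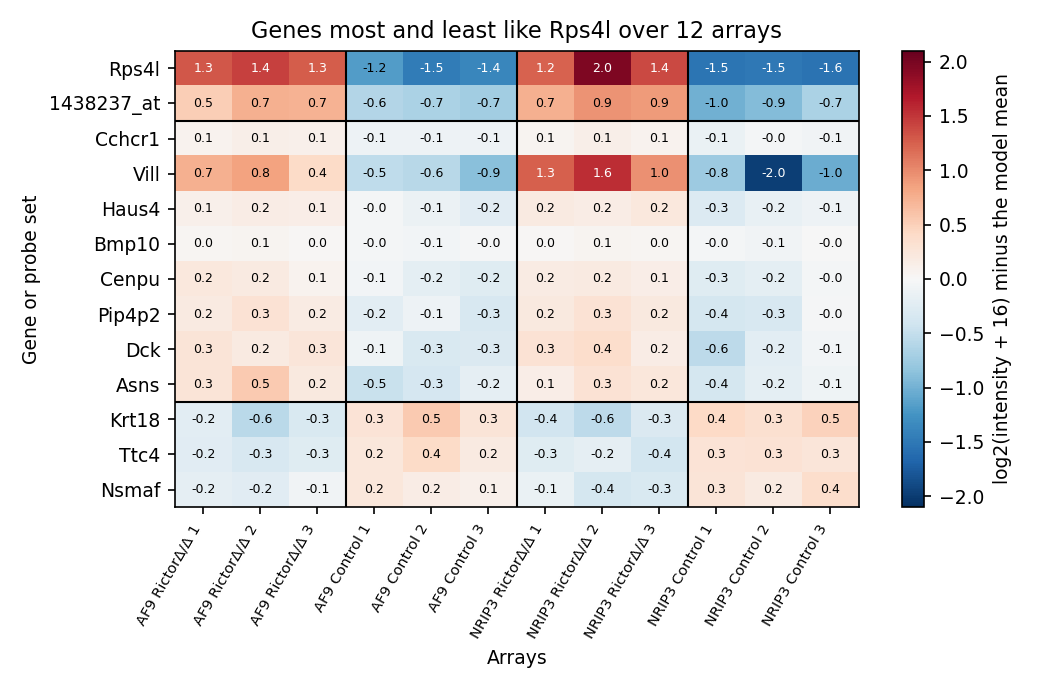
Rps4l, probe set 1438237_at, the 8 genes with the highest and the 3 with the lowest correlation with Rps4l, as log2(intensity + 16) minus the mean of the model, with a column for each of the 12 arrays. Rps4l and Vill show the widest colour range, whereas Cchcr1 (r = 0.96) and Bmp10 (r = 0.93) follow the same order of genotypes at small differences.

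Rps4x, the X-linked parent gene that supplies the S4 protein, did not follow Rps4l. Its bright probe set, 1416276_a_at, read 4337, 4348 and 4359 in RictorΔ/Δ and 4466, 4476 and 4550 in control MLL-AF9 cells. In MLL-NRIP3 cells it read 6063, 6018 and 6169 in RictorΔ/Δ and 6187, 6334 and 6237 in control cells. All 3 RictorΔ/Δ arrays lay below all 3 controls in each model, as they did for 15.9% of the genes tested in MLL-AF9 and 12.8% of those in MLL-NRIP3 leukemia. The differences were small, −0.05 ± 0.04 (SE) and −0.04 ± 0.06 on the log2 scale, and did not pass the test (limma adjusted p = 0.49 and 0.76). The second Rps4x probe set, 1420303_x_at, was dim, at 7.26 to 8.65 in RictorΔ/Δ and 6.76 to 7.66 in control MLL-AF9 cells, and at 9.64 to 11.6 in RictorΔ/Δ and 11.9 to 12.9 in control MLL-NRIP3 cells.

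The ribosomal protein genes as a group differed far less than Rps4l, and in MLL-AF9 leukemia mostly downward. A gene was called at a limma adjusted p under 0.05, which 8.43% of all genes tested passed in MLL-AF9 leukemia, with 4.54% called lower. Of 32 small subunit genes listed, 22 had a probe set of their own and 21 were tested. In MLL-AF9 leukemia 1 was called lower, 0 were called higher and 20 were not called, with a median log2 difference of −0.07 against −0.01 over all genes. Of the 21, 3 were positive, against 45.6% of all genes, and 3 had an unadjusted p under 0.05, all lower, a level that 22.1% of all genes tested passed in either direction. Their summed intensity was 66137 to 67590 in RictorΔ/Δ and 69507 to 69743 in control MLL-AF9 cells, without overlap. Of single genes tested in this model, 15.9% likewise had all 3 RictorΔ/Δ arrays below all 3 controls. The 1 gene called was Rps25, a small subunit protein known for its part in translation from internal ribosome entry sites. It read 230.6, 239.0 and 250.2 in RictorΔ/Δ and 345.8, 340.3 and 325.1 in control MLL-AF9 cells, with no overlap, and fell by 0.46 ± 0.06 (SE) on the log2 scale (limma adjusted p = 7.2e-04). In MLL-NRIP3 leukemia Rps25 was at −0.10 ± 0.13 (limma adjusted p = 0.71).

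In MLL-NRIP3 leukemia, where 1.53% of all genes tested were called and 0.739% were called lower, 0 of the 21 small subunit genes were called in either direction by limma, and 0 had an unadjusted p under 0.05, which 17.7% of all genes tested had in this model. Their median log2 difference was −0.03 against 0.00 over all genes. Their summed intensity overlapped, at 98050 to 102477 in RictorΔ/Δ and 100380 to 103375 in control cells. Of 47 large subunit genes listed, 22 were tested and 0 were called by limma in either model. With an unadjusted p under 0.05 there were 3 in MLL-AF9 and 1 in MLL-NRIP3 leukemia, all lower. Their medians were −0.02 and 0.01. In MLL-AF9 leukemia 5 of the 22 were positive, and their summed intensity was 61805 to 63270 in RictorΔ/Δ and 64089 to 64376 in control cells, again without overlap. In MLL-NRIP3 leukemia the sums overlapped, at 88357 to 90625 in RictorΔ/Δ and 87308 to 91303 in control cells. The fit of all 12 arrays called 1 large subunit gene, Rpl35, lower in MLL-NRIP3 leukemia, where it called 1734 of 12573 genes tested. Another large subunit gene, Rpl27a, was called higher in MLL-AF9 leukemia without control array 3.

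Other copies of ribosomal protein genes gave a closer comparison, since like Rps4l they duplicate a subunit gene. Of 8 such genes listed, Rps4l included, 6 had a probe set of their own. Rps27l, a p53-inducible copy of Rps27, was at −0.02 ± 0.05 (SE) in MLL-AF9 leukemia (limma adjusted p = 0.87). In MLL-NRIP3 cells it read 3165, 3021 and 2912 in RictorΔ/Δ and 1770, 2081 and 2971 in control cells, where control array 3 lay within the RictorΔ/Δ range and control arrays 1 and 2 below it (0.45 ± 0.17, limma adjusted p = 0.22). Rpl22l1, the copy of Rpl22, was at 0.05 ± 0.06 in MLL-AF9 and 0.20 ± 0.11 in MLL-NRIP3 leukemia, and Rpl7l1 was at 0.00 ± 0.07 and 0.10 ± 0.15, with limma adjusted p from 0.37 to 0.99. Rpl3l, the striated muscle copy of Rpl3, read 2.65 to 4.80 over the 12 arrays, and Rpl39l, known from testis, read 3.70 to 6.19. Neither was tested in either model.

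**Figure D4:**
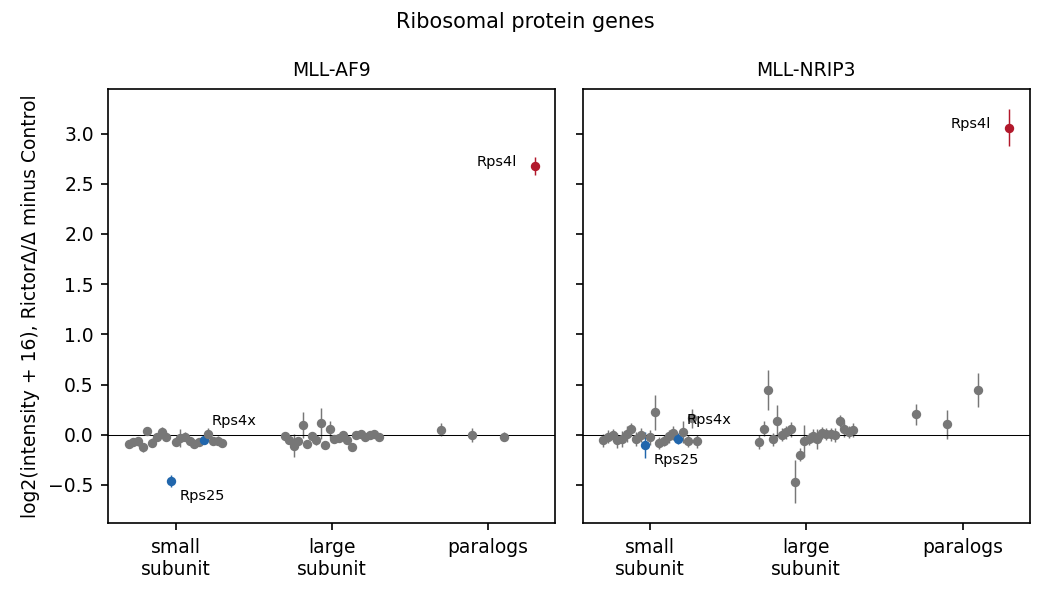
Difference of log2(intensity + 16), RictorΔ/Δ minus control, with SE, for the tested ribosomal protein genes of the small subunit (21), the large subunit (22) and the paralogs, Rps4l among them, in each model. Rps4l stands at 2.68 and 3.06, Rps4x at −0.05 and −0.04 and Rps25 at −0.46 and −0.10.

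The genes around Rps4l on chromosome 6 were taken from the order of the RefSeq table, 10 with a probe set of their own on one side and 9 on the other, where the chromosome ends. Tmtc1, which encodes a transmembrane protein of the endoplasmic reticulum and whose span holds Rps4l, was dim. It read 5.61, 4.66 and 5.67 in RictorΔ/Δ and 5.64, 4.00 and 5.18 in control MLL-AF9 cells, and 8.25, 8.36 and 12.1 in RictorΔ/Δ and 6.91, 8.11 and 9.37 in control MLL-NRIP3 cells. Its groups overlapped in both models. It was tested in MLL-NRIP3 leukemia only, at 0.08 ± 0.08 (SE, limma adjusted p = 0.62). The next genes on the same side and on the other were 4732416N19Rik and 4930528G23Rik, which over the 12 arrays read 4.95 to 11.9 and 3.10 to 4.46. Past the second lay Ipo8, an importin gene, at 0.11 ± 0.08 in MLL-AF9 and −0.22 ± 0.16 in MLL-NRIP3 leukemia (limma adjusted p = 0.44 and 0.51).

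Of 14 neighbours tested in MLL-AF9 leukemia, 1 was called lower and 0 higher, with a median log2 difference of −0.04 against −0.01 over all genes. Of all genes tested in this model, 8.43% were called and 4.54% were called lower. At an unadjusted p under 0.05, 1 neighbour was higher and 2 were lower. In either direction 22.1% of all genes tested passed that level. The gene called was Sinhcaf, a subunit of the Sin3 histone deacetylase complex, which read 177.3, 192.9 and 169.6 in RictorΔ/Δ and 227.8, 299.8 and 304.4 in control MLL-AF9 cells. Its groups did not overlap, and it fell by 0.57 ± 0.10 (SE, limma adjusted p = 0.0049), a call that ended in the fit of all 12 arrays. In MLL-NRIP3 leukemia it was at −0.31 ± 0.19 (limma adjusted p = 0.43).

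In MLL-NRIP3 leukemia 0 of 12 neighbours tested were called by limma, and 4 had an unadjusted p under 0.05, of which 3 were positive, against 17.7% of all genes tested at that level in either direction. The median was −0.06 against 0.00 over all genes. Etfbkmt, on the side away from Tmtc1, was the lower gene at that level. It read 65.5, 74.0 and 68.1 in RictorΔ/Δ and 103.8, 88.0 and 91.7 in control cells (−0.37 ± 0.14 SE, limma adjusted p = 0.21). Its RictorΔ/Δ arrays all lay below the controls, as did those of 12.8% of genes tested. On the Tmtc1 side, Far2, a fatty acyl-CoA reductase gene, read 73.6, 42.8 and 171.9 in RictorΔ/Δ and 26.8, 30.7 and 42.1 in control cells of this model (1.03 ± 0.37 SE, limma adjusted p = 0.20). Ccdc91, a gene of the trans-Golgi network, read 138.6, 163.4 and 193.5 in RictorΔ/Δ and 122.0, 105.5 and 72.2 in control cells (0.66 ± 0.20, limma adjusted p = 0.15). Both had all RictorΔ/Δ arrays above the controls at their brightest probe sets, as did 9.85% of the 12585 genes tested. For Far2 the margin was 42.8 against 42.1. The dimmer Far2 probe set 1435621_at overlapped between the genotypes. So did 1430670_at and 1453605_s_at of Ccdc91, whereas its 1418459_at did not. In MLL-NRIP3 leukemia the fit of all 12 arrays called both genes, where it called 1734 of 12573 genes tested. In MLL-AF9 leukemia Far2 was at 0.23 ± 0.11 and Ccdc91 at −0.13 ± 0.10 (limma adjusted p = 0.27 and 0.49). Ergic2, which lies between Far2 and Rps4l and encodes a protein of the early secretory pathway, was at 0.32 ± 0.11 in MLL-AF9 and 0.54 ± 0.21 in MLL-NRIP3 leukemia (limma adjusted p = 0.096 and 0.23), and was called higher in MLL-AF9 leukemia with the replicate number as a block and without control array 1. Without control array 2, Far2 was called higher there in its place. Ergic2 probe set 1451360_at overlapped between the genotypes in both models, and 1424462_at in MLL-NRIP3 leukemia only.

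**Figure D5:**
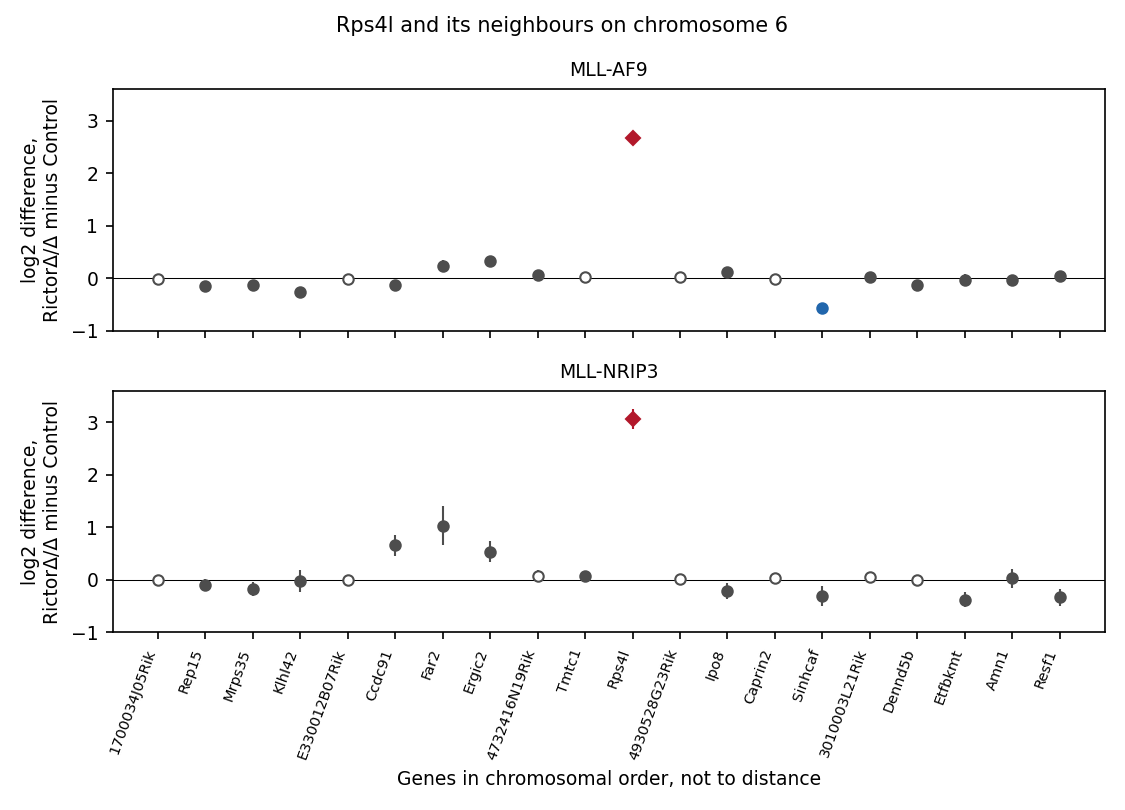
Difference of log2(intensity + 16), RictorΔ/Δ minus control, with SE, for Rps4l (diamond) and its 19 neighbours in chromosomal order in each model. Open circles were too dim to be tested and the blue circle is Sinhcaf, called lower in MLL-AF9 leukemia. The neighbours lie between −0.57 and 0.32 in MLL-AF9 and between −0.37 and 1.03 in MLL-NRIP3 leukemia, against 2.68 and 3.06 for Rps4l.

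Other measures moved with the genotype in 1 of the models. In MLL-AF9 leukemia Xist, the RNA of the inactive X, read 34.3 to 208 in RictorΔ/Δ and 2348 to 2441 in control cells, and the Y-linked Eif2s3y read 149 to 186 in RictorΔ/Δ and 3.43 to 7.81 in control cells. Sex and genotype cannot be told apart in that model. In MLL-NRIP3 leukemia Xist read 2509 to 2798 in RictorΔ/Δ and 2730 to 3558 in control cells. Eif2s3y read 2.07 to 2.23 in RictorΔ/Δ and 1.98 to 3.76 in control cells there. The part of sex in the level of Rps4l was not tested. The 18 spiked hybridization controls averaged 9.31 to 9.53 (log2) on the MLL-NRIP3 RictorΔ/Δ arrays. On the controls of this model they averaged 11.2, 10.6 and 9.48, highest on arrays 1 and 2. The ratio of 5′ to 3′ Gapdh signal, a measure of RNA integrity, was 0.881 to 0.965 on the RictorΔ/Δ arrays and 0.562, 0.738 and 0.952 on the controls. The same ratio for Actb was 0.659 to 0.714 on the RictorΔ/Δ arrays and 0.448, 0.474 and 0.614 on the controls, without overlap. The part of RNA integrity in the level of Rps4l was not tested. With control arrays 1 and 2 left out, an alternative added after the data were seen that leaves 1 control array, the log2 difference of Rps4l was 3.08.

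The summed intensity of 4 stroma and endothelium markers was 46.7 to 74.4 in RictorΔ/Δ and 86.1 to 105 in control MLL-AF9 cells, and 43.6 to 65.1 in RictorΔ/Δ and 103 to 217 in control MLL-NRIP3 cells, with Pecam1, also a gene of blood cells, called lower in both. Of single genes tested, 15.9% in MLL-AF9 and 12.8% in MLL-NRIP3 leukemia had all 3 RictorΔ/Δ arrays below all 3 controls. Pecam1 made up most of the stroma and endothelium sum. The other 3 (Col1a1, Col3a1 and Cdh5) read 2.25 to 11.6 over the 12 arrays, and of these Col1a1 alone was bright enough to test, in MLL-AF9 leukemia, at 0.05 (limma adjusted p = 0.62). That of 3 megakaryocyte markers was 67.8 to 75.9 in RictorΔ/Δ and 87.1 to 89.4 in control MLL-AF9 cells, and 134 to 170 in RictorΔ/Δ and 67.5 to 74.1 in control MLL-NRIP3 cells. Itga2b made up most of this sum and was called lower in the first model and higher in the second. In MLL-NRIP3 leukemia 9.85% of single genes tested had all 3 RictorΔ/Δ arrays above all 3 controls. Pf4 and Gp1bb, the platelet genes in that list, were at 0.03 and 0.02 in MLL-AF9 and 0.09 and 0.11 in MLL-NRIP3 leukemia, and were called in neither (limma adjusted p from 0.58 to 0.89). Of the erythroid, T cell and B cell markers, 6 were tested in MLL-AF9 and 5 in MLL-NRIP3 leukemia, and 0 were called by limma. Of all genes tested, 8.43% were called in MLL-AF9 and 1.53% in MLL-NRIP3 leukemia. The 1 NK cell marker with a probe set of its own, Ncr1, was too dim to test. Among 4 markers of the sorted leukemia cells, Cd34 and Cd48 were called lower in MLL-AF9 and Cd34 was called higher in MLL-NRIP3 leukemia. At their brightest probe sets Kit, Cd34 and Itga2b separated the genotypes in opposite directions in the models, as did 3.12% of the 11652 genes tested in both. The part of these cell types in the level of Rps4l was not tested, and in bulk samples fewer cells of a type and less RNA per cell cannot be told apart.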

How the data were processed

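RNA of sorted leukemia cells, 7 µg per array, was hybridised to Affymetrix mouse arrays. The deposited values are linear intensities for 45101 probe sets, per the file headers. No label or header names the software, background correction or normalization. Within a model the 6 arrays shared nearly 1 distribution and the models differed, so each model was tested on its own arrays. From the intensities, log2(intensity + 16) was computed and compared with limma 3.58.1 (lmFit, eBayes with trend, R 4.3.3), RictorΔ/Δ minus control. Of the probe sets, 34958 had 1 gene symbol, 932 several and 9211 none. Symbols were updated through Entrez identifiers to RefSeq (GRCm38.p6), where 18033 of 18194 genes were found. The brightest probe set stood for its gene, which was tested above the 40th percentile of mean level in the model. P-values were Benjamini-Hochberg adjusted over all genes tested. The procedure was tested on simulated data with 200 changed genes per model. Of the genes it called, 7.18% were false in MLL-AF9 and 3.64% in MLL-NRIP3 leukemia. It recovered 88% of log2 changes of 0.5 in MLL-AF9 and 36% in MLL-NRIP3 leukemia. Of log2 changes of 1 it recovered 100% and 84%. Named by rule were Rps4l, Rps4x, the paralogs, label checks, the 8 genes with the highest and 3 with the lowest correlation with Rps4l, genes that crossed the array median in both models, called ribosomal genes and neighbours, and the 2 nearest neighbours on each side. Other genes were named after their values were seen. The gene and the lists were chosen with earlier results of these data known. Alternatives were the added constant, the filter, the choice of probe set, 1 fit of all 12 arrays, the replicate number as a block and leaving out each array.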

Additional observations from a re-analysis of the deposited data

Results flagged for a closer look

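For 3 markers, read at their brightest probe sets, every RictorΔ/Δ array lay on one side of the controls in MLL-AF9 leukemia and on the other in MLL-NRIP3 leukemia. The dimmer Kit probe set, 1415900_a_at, overlapped between the genotypes in both models. Of 11652 genes tested in both models, 364 (3.12%) separated in opposite directions in this way. The difference between the models was not tested. On the log2(intensity + 16) scale, RictorΔ/Δ minus control, Kit, the stem cell factor receptor, was at −0.3941 in MLL-AF9 and 0.5846 in MLL-NRIP3 leukemia, and was called in neither (limma adjusted p = 0.055 and 0.13). Cd34, a progenitor antigen, was at −0.4363 and 1.4122. Itga2b, the platelet integrin αIIb, was at −0.3263 and 1.1805. Rps4l was higher in RictorΔ/Δ cells of both models, but it was chosen for this, so its contrast with these 3 markers is no result.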

How the results depend on the processing

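Rps4l was higher in RictorΔ/Δ cells under every alternative run, but its size followed the added constant, at 4.25 and 5.07 with 1 added and 1.42 and 1.64 with 64 added (MLL-AF9, then MLL-NRIP3), since a larger constant shrinks differences of dim genes. Leaving out each array gave 2.61 to 2.75 and 2.84 to 3.21. Rps4x kept its sign and was not called. The number of genes called moved most. In MLL-AF9 leukemia it was 1050, 176 in 1 fit of all 12 arrays and 588 to 993 without 1 array (588 without RictorΔ/Δ array 2 and 677 without RictorΔ/Δ array 3). In MLL-NRIP3 leukemia it was 193, 97 with probe sets averaged per gene, 1734 in 1 fit of all 12 arrays, and 28 with control arrays 1 and 2 left out, which was added after the data were seen. That last count rests on 1 control array against 3 RictorΔ/Δ arrays: the spread comes from the RictorΔ/Δ arrays and limma's pooling over genes, and the lone control is assumed to vary like them. Without 1 array it was 30 to 848: 72, 30 and 848 without control arrays 1, 2 and 3, and 45 and 67 without RictorΔ/Δ arrays 1 and 2. The causes were not tested. Small subunit genes called in MLL-AF9 leukemia were 2 with each probe set on its own (Rps25 lower and Rps9 higher). Large subunit genes called in MLL-AF9 leukemia were 0 to 1 without 1 array, and in MLL-NRIP3 leukemia 1 in the fit of all 12 arrays. Neighbours called in MLL-AF9 leukemia were 2 with the mean of probe sets (Klhl42 and Sinhcaf, both lower). With each probe set on its own they were 2, Resf1 higher and Sinhcaf lower. The count was 0 in the fit of all 12 arrays and 1 to 2 without 1 array. In MLL-NRIP3 leukemia it was 2 in the fit of all 12 arrays, both higher. Genes crossing the dividing level in both models were 1 at the 60th percentile, and 0 of the 8 genes most like Rps4l were shared by Spearman's rho. The replicate numbers did not pair the arrays: deviations of arrays with the same number correlated at −0.099 to 0.024 in MLL-AF9 and −0.135 to 0.057 in MLL-NRIP3 leukemia. With the replicate number as a block 973 and 176 genes were called, 2 neighbours were called in MLL-AF9 leukemia, and Rps4l stood at 2.68 and 3.06. Without detection calls, how far dim values lie above background is not known.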
